A study of Mus musculus with 32 samples.

Results

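The genes described are those of the cytosolic ribosomal proteins, the protein parts of the large and the small subunit of the ribosome. They were taken by symbol: every row of the count tables whose symbol begins with Rpl or Rps and a number, or is Rpsa, Rplp0, Rplp1 or Rplp2, without pseudogene symbols and without the S6 kinases. The rule found 88 of 24302 gene rows. Of these, 46 are large-subunit genes, 31 are small-subunit genes and 11 are named after another ribosomal protein gene, among them the paralogues Rps27l, Rpl7l1, Rpl22l1 and Rpl36al and the Rps19-binding protein gene Rps19bp1. The measurement was RNA sequencing of polyadenylated RNA, which reads mRNA level and not ribosomes or protein.

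The RNA came from CD4+ T cells of C57BL/6J mice, and the labels name spleen with inguinal and axillary lymph nodes as the source. Mice were labelled WT or Nur77KO, Nur77 being the nuclear receptor encoded by Nr4a1. Each genotype gave 4 groups of 4 libraries, 32 libraries in all: an unstimulated control, cells given antibodies to CD3 and CD28 for 12 h, and cells given the same antibodies with XCT790 or with CompA, each at 10 µg/ml. XCT790 is known as an inverse agonist of the oestrogen-related receptor alpha, and CompA is known here only by its code. The protocol text describes the stimulation without excepting the controls. The vehicle, the ages of the mice, how the Nur77KO allele was made and how many animals a library holds are not given in the sources used here. No label names separate animals or cultures, so p-values measure the spread between these libraries, which may be technical.

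Libraries held between 16020288 and 23687940 counts in genes and 13060 to 15148 genes with a count. The targeted gene did not follow the label: Nr4a1 stood at 71.6 ± 21.4 CPM (counts scaled to a common library total; SD, n = 4) in WT unstimulated and 94.2 ± 10.9 in KO-labelled unstimulated libraries, and at 166 ± 32.7 and 332 ± 128 after stimulation. A transcript can remain where a protein is lost, so these levels check neither label nor protein, and every direction between genotypes below is a direction between libraries labelled KO and WT. Of 8 T cell markers, 6 matched a listed symbol, and their summed level lay between 2498 and 4413 CPM in every library. Other cells were present too. The summed level of the 19 matched myeloid and dendritic markers was 2715 to 4461 CPM in WT unstimulated, 1043 to 2458 in KO-labelled unstimulated, 691 to 1842 in WT stimulated and at most 287 CPM in the other 20 libraries. No CPM or share here can tell fewer cells of a type from less RNA per cell.

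Ribosomal protein mRNAs are among the most abundant of any growing cell. Most begin with a C and a run of pyrimidines, the terminal oligopyrimidine (TOP) motif, through which the kinase complex mTORC1 and the RNA-binding protein LARP1 set how well they are translated. Resting T cells hold many ribosomal protein mRNAs, and activation is known to raise ribosome production, with transcription of ribosomal RNA and of assembly factors driven in part by Myc.

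Levels differed widely among the members. Of the 88 genes, 84 passed the filter on low counts, 76 of them core subunit genes, 45 large and 31 small. The others were the muscle paralogue Rpl3l with 3 reads in all libraries together, Rpl26 with 1 read, and the testis paralogue Rpl10l and Rps27rt with 0. The 76 core genes had a median of 1745 CPM per kilobase of transcript. The highest per kilobase were the stalk gene Rplp1 at 9172, the small-subunit gene Rps14 at 6217 and the stalk gene Rplp2 at 5096, and the lowest were the large-subunit gene Rpl30 at 2.08, the processed pseudogene Rps4l at 2.63 and Rpl39l, a testis paralogue of Rpl39, at 2.77. The core genes Rpl30, Rpl34 and Rps27 all lay under 10 CPM, while 72 of 76 reached 100 CPM.

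Levels between genes cannot be read as mRNA levels alone. Ribosomal protein genes have many processed pseudogene copies, and a read that matches several places was set aside in the counting as not unique. In the GENCODE transcripts, 76 of the 77 core genes shared at least 1 stretch of 50 bases with the transcript of another gene, and the median core gene shared 61.2% of its stretches. Rps27 shared 98.7%. The share did not set the level gene by gene, since Rpl39l shared 0% and Rps4l 17.97% while Rpl5, a large-subunit gene that binds the 5S RNA, shared 93.8% and stood at 2344 CPM. Across the 76 tested core genes, those with a larger share tended to a lower rank of CPM per kilobase (Spearman rho −0.26, a description across genes). A member with shared stretches may be undercounted, and comparisons within a gene across libraries are safer than levels between genes.

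The members together took 16.1% ± 3.54 of gene counts in WT unstimulated libraries (SD, n = 4), the highest share of the 8 groups and the widest spread. The 4 libraries stood at 20.7, 12.7, 17.0 and 14.1%. In the KO-labelled unstimulated libraries the share was 10.1% ± 0.652, the lowest of the 8 groups, with libraries at 9.69, 10.8, 9.36 and 10.4%. No library of one unstimulated group reached into the range of the other.

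Stimulated groups lay between these ends and overlapped each other. The share was 12.5% ± 1.5 in WT stimulated, 12.8% ± 1.15 with XCT790 and 12.5% ± 0.690 with CompA. In KO-labelled cells it was 11.5% ± 2.26, 12.1% ± 1.32 and 11.3% ± 1.62 in the same order. Over the 74 core genes with at least 50 counts a library on average, the group with the highest mean was WT unstimulated for 45 genes and the lowest was KO-labelled unstimulated for 68.

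**Figure D1:**
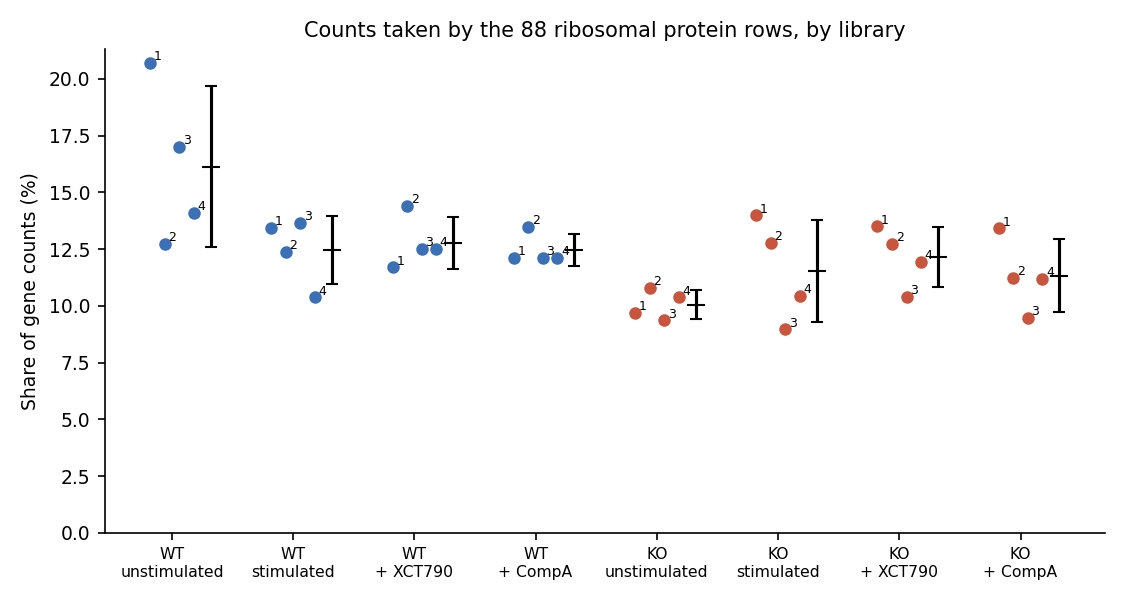
Share of gene counts taken by the 88 ribosomal protein rows (vertical axis, %), by group (horizontal axis); points are libraries, numbered by replicate, and bars are the mean ± SD of 4 libraries. WT unstimulated libraries spread from 12.7 to 20.7%, and KO-labelled unstimulated libraries lie together between 9.36 and 10.8%.

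The genes rose and fell as a block from library to library within a group. WT unstimulated replicate 1 was the highest library for 72 of 74 core genes and replicate 2 the lowest for 70. In KO-labelled libraries replicate 3 was the lowest for 72 genes when stimulated, 72 with XCT790 and 73 with CompA, and replicate 1 was the highest for 55, 69 and 73. The spread of a gene between replicates, as a coefficient of variation, had a median of 31.4% in WT unstimulated and 7.23% in KO-labelled unstimulated libraries. Rpl4, a large-subunit gene with long transcripts for this family, had the smallest in every group (10.4% in WT unstimulated), and Rpl17, a large-subunit gene at the tunnel exit, the largest (106%). Rpl17 ran from 7.55 CPM in a KO-labelled library with CompA to 340 CPM in a WT unstimulated library, and no comparison called it.

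The balance between subunits differed between the unstimulated groups as well. Counts of large-subunit genes over those of small-subunit genes gave a ratio of 1.11 ± 0.0288 (SD, n = 4) in WT unstimulated libraries and 1.17 ± 0.0202 in KO-labelled unstimulated ones. It was 1.18 ± 0.0321 in WT stimulated and 1.21 ± 0.0510 in KO-labelled stimulated libraries. All WT unstimulated libraries (1.06 to 1.13) lay below all KO-labelled unstimulated libraries (1.15 to 1.20).

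Because these genes moved together, the letters around their start sites are shown. RefSeq promoters (GRCm38.p6, 250 bases before to 50 after each annotated start) were found for 65 members other than Rps19bp1 and Rpl7l1. A run of at least 8 pyrimidines, C or T on the sense strand within 50 bases of any annotated start, was in 53 of 65 of these promoters (81.5%), against 39.3% of 27025 genes with a promoter. That background takes every gene with a promoter, tested here or not, and a gene with several starts has more chances of a run. The windows below belong to the members with the largest changes described further on, to the S6 kinase substrate Rps6, the stalk gene Rplp2 and 3 pairs of a gene and its paralogue. Rpl7a, with a run of 21 bases, is shown too and was named after its values were seen. Each window is 30 bases, with the longest pyrimidine run of that stretch in capitals, the upstream one where runs are equally long.
Rps6, chr4:86857345-86857374, minus strand: gtcgggCCTCTTTTTCgtgacgcctcccag
Rplp2, chr7:141447640-141447669, plus strand: tcagcgTCTTCCTTTCgccgccggacgccg
Rpl35a, chr16:33056471-33056500, plus strand: ggcttgCCTTCCTCTTTCCgccatcttggc
Rps24, chr14:24490710-24490739, plus strand: gagcggTCCTCTTTTCCTCCTCTCCagctc
Rps21, chr2:180257407-180257436, plus strand: gagctaCTTCCTTTCTgcgctctcgctgga
Rpl39, chrX:37085173-37085202, minus strand: gttcttccggtcccggCCTTTCTCTTCTCC
Rps2, chr17:24720083-24720112, plus strand: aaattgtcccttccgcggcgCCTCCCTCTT
Rpl7a, chr2:26910787-26910816, plus strand: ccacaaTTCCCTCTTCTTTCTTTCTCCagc
Rps27, chr3:90213627-90213656, minus strand: ctttcgCTCCTTTCCggcggtgacgacctc
Rps27l, chr9:66946058-66946087, plus strand: cctccaCTCCTCTCCactcctccccgccgc
Rpl22, chr4:152325681-152325710, plus strand: gtctgaCTCCTCCCTTTCCCgacagccgac
Rpl22l1, chr3:28805503-28805532, plus strand: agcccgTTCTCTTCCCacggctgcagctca
Rpl36a, chrX:134585674-134585703, plus strand: gctctagCCTCTCTCTTTCCgagctgctag
Rpl36al, chr12:69184018-69184047, minus strand: tctgttcgTCCCTTTCCTgttcggcgcgtg
The runs of Rps6, Rplp2, Rps27 and Rpl22l1 begin within 5 bases of the annotated start, where a TOP motif would sit, while that of Rps27l begins 22 bases before it. Rpl35a has several annotated starts, and its run begins at −5 bases from one and at 24 and −37 from others. A match is a description of letters, and the start sites used in these cells were not measured.

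Other short motifs were counted in the same promoters, and against the same background, over all 300 bases on both strands. CCGGAAG, the core of ETS-family sites, was in 40.0% of the members' promoters and 9.9% of all. CTTTCC was in 52.3% and 29.3%, AAGATGG in 13.8% and 7.3%, and the E-box CACGTG in 9.2% and 8.1%. CTTTCC is made of pyrimidines and so overlaps the pyrimidine run in part. These shares describe sequence and say nothing of which factor bound in these cells.

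Stimulation of WT cells moved the members in both directions. Of 76 core genes 6 rose and 26 fell, and of the 8 genes named after another 3 rose and 0 fell. Of all 84 tested members, 9 rose and 26 fell by edgeR's quasi-likelihood test at a Benjamini-Hochberg adjusted p under 0.05. Across all 12332 genes tested, 34.5% rose and 38.8% fell, so the share of members that rose is below that of all genes and the share that fell is near it. The members' median log2 fold change was −0.27, beside −0.11 for all genes.

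The 9 that rose were Rps27l, Rps19bp1, Rpl7l1, Rps2, Rpl34, Rpl30, Rpl15, Rpl41 and Rpl7a. Rps27l (chr9:66946086-66949516, plus strand), a paralogue of Rps27 known as a p53 target, stood at 63.3, 30.7, 36.1 and 32.3 CPM in the unstimulated WT libraries and at 283, 209, 236 and 192 CPM after stimulation. The ranges lay far apart, and the log2 rise was 2.50 ± 0.23 (SE; edgeR adjusted p = 1.1e-10). Rpl7l1 (chr17:46773907-46782672, minus strand), a paralogue of Rpl7 linked to assembly of the large subunit, went from 93.8 ± 15.6 to 352 ± 38.2 CPM (SD, n = 4), a log2 rise of 1.91 ± 0.11 (edgeR adjusted p = 2.3e-15). Rps19bp1 (chr15:80260615-80264315, minus strand), whose protein binds Rps19 and the deacetylase Sirt1, went from 15.3 ± 3.67 to 63.5 ± 9.48 CPM, a log2 rise of 2.06 ± 0.15 (edgeR adjusted p = 6.6e-13). None of these 3 genes encodes one of the standard ribosomal proteins.

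Among the standard genes Rps2 (chr17:24718116-24721929, plus strand), a small-subunit protein of the mRNA entry side, rose most of those above 10 CPM. Its libraries stood at 794, 396, 660 and 567 CPM unstimulated and at 1364, 1119, 1351 and 1121 CPM stimulated. The groups did not overlap, and the log2 rise was 1.04 ± 0.20 (edgeR adjusted p = 5.0e-05). Rpl34 reached a log2 rise of 2.59, but from 0.890 to 5.39 CPM, and it shared 50.6% of its stretches with other transcripts, less than the median core gene.

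The falls in WT cells were small and leaned to the small subunit. Of 31 small-subunit genes 1 rose and 15 fell, with a median of −0.40, and of 45 large-subunit genes 5 rose and 11 fell, with a median of −0.14. Rpl39 (chrX:37082520-37085402, minus strand), a short protein of the exit tunnel, fell most among those above 10 CPM: its libraries stood at 1909, 961, 1390 and 1048 CPM unstimulated and at 910, 816, 855 and 624 CPM stimulated, with no overlap. The log2 change was −0.73 ± 0.17 (edgeR adjusted p = 0.00043). Rps24 and Rps21, small-subunit genes, fell by 0.69 ± 0.20 and 0.66 ± 0.20 on the log2 scale (edgeR adjusted p = 0.0036 and 0.0043).

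The size of that fall rested on 1 library. Without WT unstimulated replicate 1, the library richest in ribosomal protein counts, 17 members rose and 4 fell, the median turned to 0.04, and Rps24 and Rps21 were no longer called (edgeR adjusted p = 0.096 and 0.12). The summed level of erythroid and platelet markers was 281 CPM in that library and 34.0 to 56.9 CPM in the other 3, and that of stroma markers 117 against 181 to 197 CPM; their part in the result was not tested. The split also moved with scaling, to 5 higher and 48 lower with upper-quartile factors. It was 8 and 8 when only the WT unstimulated and stimulated libraries were fitted. Shares of all genes called in these fits are not given here. A shift of the members alone therefore cannot be told from one of all genes.

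Of the stalk and surface members, Rplp1 fell by 0.50 ± 0.20 on the log2 scale in stimulated WT cells (edgeR adjusted p = 0.025), and Rps6, the substrate of the S6 kinases, fell by 0.36 ± 0.14 (edgeR adjusted p = 0.025). Rplp0 (log2 −0.14), Rplp2 (−0.37) and Rpsa (−0.03), a small-subunit surface protein also known as the laminin receptor, did not pass the test.

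Stimulation of KO-labelled cells raised most members. Of 84 tested, 59 rose and 1 fell, the low-count Rps27, where 39.3% of all genes rose and 42.4% fell. The members' median log2 fold change was 0.59 beside −0.07 for all genes. Large-subunit genes gave 34 of 45 higher with a median of 0.65, and small-subunit genes 19 of 31 higher and 1 lower with a median of 0.45. For 43 members every stimulated library lay above every unstimulated one, a pattern held by 34.8% of all genes.

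Rps27l, Rps19bp1 and Rpl7l1 rose most among members above 10 CPM here too. Rps27l stood at 28.8, 29.8, 29.5 and 36.0 CPM unstimulated and 361, 466, 217 and 281 CPM stimulated, 10.7-fold higher by the fit, with a log2 rise of 3.42 ± 0.24 (edgeR adjusted p = 1.3e-13). Rpl7l1 went from 79.0 ± 6.27 to 462 ± 51.1 CPM (SD, n = 4), a log2 rise of 2.55 ± 0.11 (edgeR adjusted p = 3.2e-18). Rps19bp1 went from 12.9 ± 1.06 to 80.5 ± 13.2 CPM, a log2 rise of 2.64 ± 0.15 (edgeR adjusted p = 1.7e-15).

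Rps2 stood at 291, 297, 285 and 332 CPM unstimulated and at 1782, 1347, 925 and 1465 CPM stimulated, with no overlap. Its log2 rise was 2.20 ± 0.21 (edgeR adjusted p = 1.3e-10). All 9 genes that rose in WT cells also rose in KO-labelled cells, 6 fell in WT and rose in KO-labelled cells, and 19 fell in WT and were not called in KO-labelled cells.

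The stalk rose with the rest. Rplp0 went from 3180 ± 223 to 5694 ± 1595 CPM, a log2 rise of 0.84 ± 0.19 (edgeR adjusted p = 0.00028), and Rpsa rose by 0.88 ± 0.18 (edgeR adjusted p = 7.9e-05). Rplp1 and Rplp2 rose by 0.44 ± 0.20 and 0.43 ± 0.19 (edgeR adjusted p = 0.043 and 0.034), and Rps6 by 0.36 ± 0.14 (edgeR adjusted p = 0.023). Rpl39, Rps24 and Rps21, which fell in WT cells, had log2 values of 0.02, 0.21 and 0.17 and did not pass the test. Scaled by library totals, under which the all-gene median went from −0.07 to −0.40, 37 members rose and 5 fell, with a members' median of 0.25; with upper-quartile factors 39 rose and 2 fell.

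**Figure D2:**
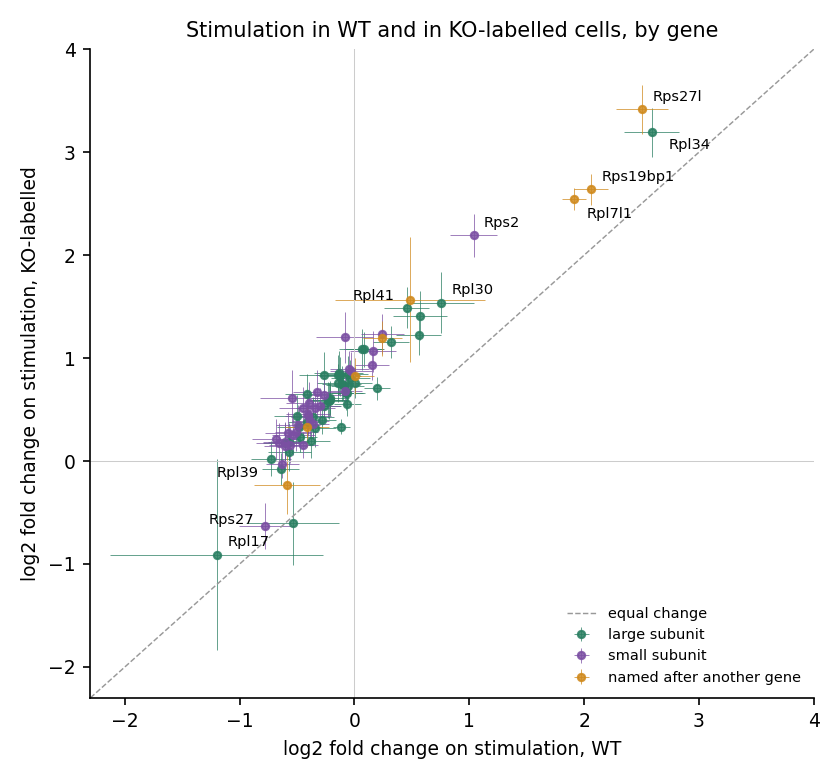
log2 fold change on stimulation in WT cells (horizontal axis) and in KO-labelled cells (vertical axis) for the 84 tested members; bars are standard errors of the fit, and the dashed line marks equal change. All but 1 of the 84 lie above the line, with Rps27l, Rpl34, Rps19bp1, Rpl7l1 and Rps2 at the upper end in both genotypes and Rpl17 and Rps27 at the lower end.

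The difference between these responses was tested as an interaction of genotype label and stimulation. Of 84 members, 72 had a higher log2 fold change in KO-labelled than in WT cells and 0 a lower one, where 17.2% of all genes were higher and 16.5% lower. The median difference was 0.81, beside −0.04 for all genes. Rps27a, which encodes ubiquitin fused to a small-subunit protein, had the largest value of any member, 1.29 ± 0.35 (edgeR adjusted p = 0.0070), and Rps2 followed with 1.16 ± 0.28 (edgeR adjusted p = 0.0038). The count of 72 fell to 35 without WT unstimulated replicate 1 and to 34 when each interaction was fitted on its own 4 groups; all were higher in both cases. That library is the one whose marker levels stood apart above.

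The stimulated ends of the contrast did not stand apart. Between KO-labelled and WT stimulated libraries 1 of 84 members differed, where 25.2% of all genes did. That gene was Rpl7l1, at 513, 495, 405 and 433 CPM in KO-labelled and 398, 306, 360 and 345 CPM in WT stimulated libraries. The groups did not overlap, and the log2 difference was 0.39 ± 0.10 (edgeR adjusted p = 0.0050). The members' median difference was −0.07, with a median standard error of 0.18 for a gene.

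The WT stimulated libraries kept a share of the level of some genes high in WT unstimulated libraries, and subtracting this share moved the value of Rpl7l1. This share was read from 112 genes at 10 CPM or more in WT unstimulated libraries. They lay under 2% of that level in the other stimulated groups, which makes those groups low by construction. The share was 0.204, 0.349, 0.287 and 0.195 in the 4 WT stimulated libraries. After subtraction of it (an alternative added once the data had been seen) the KO-against-WT difference of Rpl7l1 was −0.0017 on the log2 scale (edgeR adjusted p = 0.996) and no member was called. With stimulation of WT cells 11 members rose and 39 fell after subtraction, beside 9 and 26 without it.

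The unstimulated ends did stand apart. Of 84 members, 74 were lower in KO-labelled than in WT unstimulated libraries and 0 were higher, where 12.5% of all genes were higher and 23.6% lower. The median log2 difference was −0.90, beside −0.08 for all genes. For 73 members every KO-labelled library lay below every WT library, which held for 19.8% of all genes. The interaction above shares these libraries, and 69 of the 74 genes were called in both.

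The largest differences among genes above 10 CPM were those of Rps27a and of Rpl35a, a large-subunit gene mutated in some families with Diamond-Blackfan anaemia. Rps27a (chr11:29545846-29548109, minus strand) stood at 409, 522, 421 and 465 CPM in KO-labelled and at 1561, 758, 979 and 815 CPM in WT unstimulated libraries. The groups did not overlap, with a 2.26-fold lower level and a log2 difference of −1.18 ± 0.25 (edgeR adjusted p = 0.00096). Rpl35a (chr16:33056453-33060189, plus strand) stood at 459, 503, 459 and 540 CPM against 1547, 773, 1141 and 850 CPM, a log2 difference of −1.14 ± 0.20 (edgeR adjusted p = 0.00014).

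The stalk and surface genes were lower by like amounts. Rplp0 (chr5:115559467-115563727, plus strand) differed by −0.90 ± 0.19, Rplp1 (chr9:61913284-61914542, minus strand) by −1.01 ± 0.20, Rplp2 (chr7:141447370-141451585, plus strand) by −0.92 ± 0.19, Rpsa (chr9:120127689-120132369, plus strand) by −0.96 ± 0.18 and Rps6 (chr4:86854660-86857412, minus strand) by −0.83 ± 0.14 on the log2 scale, all with an edgeR adjusted p of 0.0012 or less. Rpl4, the most even member between replicates, stood at 2923 ± 99.8 CPM against 4169 ± 432, a log2 difference of −0.51 ± 0.07 (edgeR adjusted p = 1.3e-05). The narrow spread among members was part of the pattern, with the middle 50% of genes between −0.97 and −0.80.

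The other 10 tested members were not called there. They were the low-count Rpl30, Rpl34, Rps27, Rpl39l and Rps4l, the widely spread Rpl17 and Rpl21, and Rps27l, Rpl7l1 and Rps19bp1. The last 3 had log2 differences of −0.38 ± 0.22, −0.25 ± 0.10 and −0.24 ± 0.15 (edgeR adjusted p = 0.16, 0.061 and 0.19), and all 3 are genes that stimulation raised in both genotypes.

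Other measures differed between the unstimulated groups along with the members, and their part in the difference was not tested. Reads set aside as not unique amounted to 68.9 to 91.3 per 100 gene counts in WT and 59.1 to 71.2 in KO-labelled unstimulated libraries. Reads in no gene made up 4.02 to 6.37% in WT and 5.68 to 7.94% in KO-labelled libraries. Myeloid and dendritic markers summed to 3423 ± 765 CPM (SD, n = 4) in WT against 1685 ± 609 CPM, T cell markers to 3942 ± 374 and 3819 ± 98.6, and B cell markers to 177 ± 31.4 and 258 ± 279, with 674 CPM in KO-labelled replicate 2, without which 75 members were lower. Labels number the WT libraries 1 to 16 and the KO-labelled ones 25 to 40, so genotype and any order of handling that these numbers follow cannot be told apart.

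Transcript length moved with the contrast as well. Outside the member set, the 780 tested genes with a transcript under 1000 bases had a median of −0.45 between KO-labelled and WT unstimulated libraries, and 51.0% of them were lower. The median was −0.25 for 2690 genes of 1000 to 2000 bases, −0.05 for 4688 genes of 2000 to 4000 bases and 0.17 for 3160 longer genes, of which 10.3% were lower. The 76 tested core genes have a median transcript of 740 bases, and the 59 under 1000 bases had a median of −0.91. The short members were thus further from 0 than other short genes, and within the family the differences hardly followed length (Spearman rho 0.11 across 74 genes, a description).

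Stimulation of KO-labelled cells showed the same order by length. Other genes under 1000 bases had a median log2 rise of 0.63 there, close to the 0.61 of the 59 short members, and genes of 4000 bases or more a median of −0.56. In WT cells the medians were 0.08 for other short genes and −0.27 for the short members. In the interaction they were 0.50 and 0.82. These medians of genes that share libraries were not tested against each other.

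**Figure D3:**
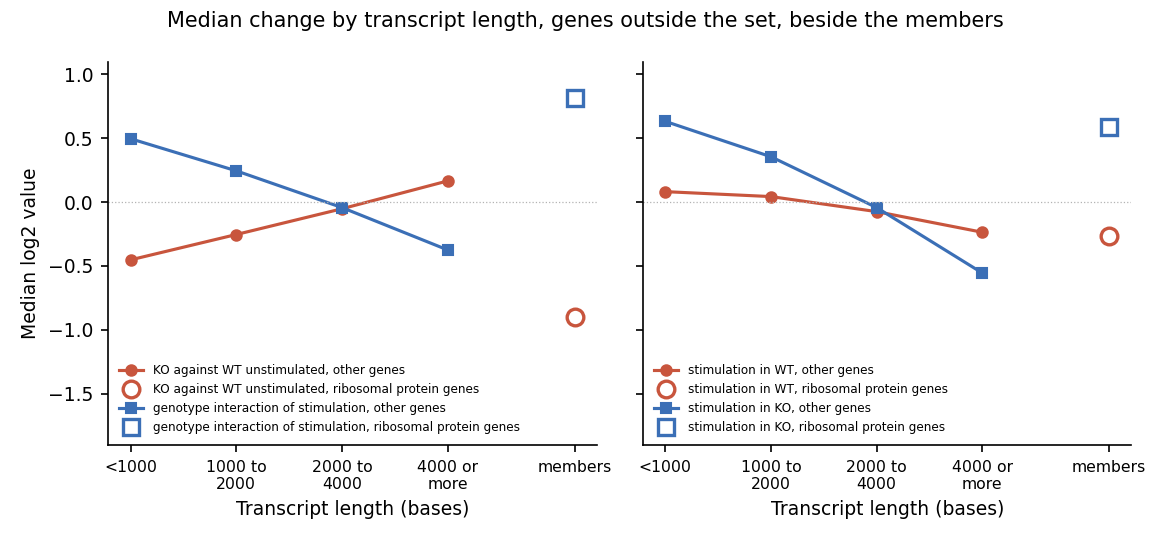
Median log2 value (vertical axis) of tested genes outside the set by transcript length in bases (horizontal axis, filled points), beside the median of all 84 members (open points), for the contrast of unstimulated groups and the interaction on the left and for stimulation in each genotype on the right. Other genes go from −0.45 to 0.17 with length in the unstimulated contrast, and the members sit at −0.90.

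The members with and without these sequence features are given side by side. The 51 tested members with a promoter and a pyrimidine run, genes named after another included, had a median of −0.91 between unstimulated groups and 47 were lower, and the 10 without one had −0.93 with all 10 lower. With stimulation in KO-labelled cells the medians were 0.59 and 0.55. The 25 tested members with CCGGAAG, Rps27l and Rpl39l among them, had a median of −0.06 on stimulation in WT cells, with 5 higher and 6 lower, and the 36 without it −0.37, with 1 higher and 14 lower. In KO-labelled cells these medians were 0.75 and 0.52, and between the unstimulated groups they were −0.91 each. These are descriptions of genes that share libraries and were not tested.

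In WT cells edgeR's test on all 8 groups called no member with XCT790 or with CompA. With XCT790 0 of 84 members passed edgeR's test, where 28.6% of all genes did, 1 had an unadjusted p under 0.05, and DESeq2 and limma-voom also called 0. With CompA the counts were 0, 1, 0 and 0, where 32.8% of all genes passed. Medians were 0.13 with XCT790 and 0.09 with CompA, against −0.01 and −0.04 for all genes, with 71 and 63 of 84 members above 0. The standard error of a gene had a median of 0.18, so a change of the median's size in a single gene was not detectable here.

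Rps2 came nearest among abundant members. Its libraries stood at 1347, 1832, 1499 and 1666 CPM with XCT790 and 1497, 1678, 1922 and 1495 CPM with CompA, beside 1364, 1119, 1351 and 1121 CPM with stimulation alone. With CompA all libraries lay above those of stimulation alone, and the log2 difference was 0.41 ± 0.20 (edgeR adjusted p = 0.12). With only the compared groups in the fit Rps2 passed with both agents (edgeR adjusted p = 0.041 and 0.013), and Rpl24, Rpl28 and Rpl34 passed with CompA, all higher.

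In KO-labelled cells edgeR's test on all 8 groups called Rpl7l1 and Rps19bp1 lower with both agents, and no standard ribosomal protein gene. Stimulation had raised both genes. Standard genes that other fits called are given below. With XCT790 0 members rose and 2 fell, where 6.2% of all genes rose and 5.07% fell. Rpl7l1 stood at 363, 395, 293 and 339 CPM with XCT790 and at 397, 388, 329 and 369 CPM with CompA, all below the 405 to 513 CPM of stimulation alone. The log2 changes were −0.41 ± 0.10 and −0.32 ± 0.10 (edgeR adjusted p = 0.00985 and 0.028).

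Rps19bp1 stood at 63.0, 70.8, 50.5 and 56.8 CPM with XCT790 and at 63.6, 66.1, 47.3 and 52.0 CPM with CompA, beside 92.1, 91.1, 66.0 and 72.7 CPM with stimulation alone. The ranges overlap slightly, and the log2 changes were −0.42 ± 0.14 and −0.49 ± 0.14 (edgeR adjusted p = 0.0495 and 0.013). With CompA 0 members rose and 2 fell, where 10.2% of all genes rose and 9.11% fell. Neither gene was called with either agent when only the compared groups were fitted (edgeR adjusted p between 0.071 and 0.12).

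Rps27l pointed the same way in KO-labelled cells, with libraries at 239, 328, 156 and 231 CPM with XCT790 and 272, 276, 173 and 237 CPM with CompA. Its log2 changes of −0.47 ± 0.21 each did not pass the test (edgeR adjusted p = 0.16 and 0.13). KO-labelled libraries of the same run of label numbers deviated together, and with the run as a block Rps27l was called with both agents (edgeR adjusted p = 0.030 and 0.031). The blocked fit called 5 members with each agent. They were Rpl7l1, Rps19bp1, Rps27l and Rpl30, all lower, with Rpl23a higher under XCT790 (log2 0.35) and Rpl34 lower under CompA (log2 −0.51). Of these Rpl30, Rpl23a and Rpl34 are standard ribosomal protein genes, Rpl30 and Rpl34 with low counts. DESeq2 also called Rpl34 lower with CompA (log2 −0.56, DESeq2 adjusted p = 0.044).

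A difference between genotypes in the response to the agents was called for few members. For XCT790 the interaction called Rpl34, Rpl7l1 and Rps19bp1, all lower in KO-labelled cells, where 24.7% of all genes were called. For CompA it called Rpl34 and Rpl7l1, where 21.6% of all genes were called. Rpl34 has low counts, with a mean of 5.0 CPM over the 8 groups. Its value for XCT790 was −0.78 (edgeR adjusted p = 0.047). It was not called there with library totals, upper-quartile factors or only the compared groups. Rpl7l1 had −0.57 ± 0.14 for XCT790 and −0.44 ± 0.14 for CompA (edgeR adjusted p = 0.0047 and 0.027), and Rps19bp1 −0.57 ± 0.20 for XCT790 (edgeR adjusted p = 0.035). With the unstimulated share subtracted from the WT stimulated libraries no member was called in either interaction, Rpl7l1 had −0.18 and −0.05, and CompA then lowered Rpl7l1 and Rps19bp1 in WT cells too, by log2 values of −0.26 and −0.45 (edgeR adjusted p = 0.049 and 0.014).

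No member was called between the agents, though most were lower with CompA in both genotypes, more so in KO-labelled cells. Between CompA and XCT790, 0 of 84 members passed edgeR's test in WT cells, where 9.41% of all genes did, and 0 in KO-labelled cells, where 3.24% did. DESeq2 and limma-voom called 0 in both, and 1 and 0 members had an unadjusted p under 0.05. Single members lay between −0.64 and 0.67 in WT and between −0.33 and 0.49 in KO-labelled cells on the log2 scale. The middle 50% lay between −0.09 and 0.02 in WT cells and between −0.16 and −0.07 in KO-labelled cells. With CompA 57 of 84 members were lower in WT and 76 in KO-labelled cells. Medians were −0.05 and −0.12, beside 0.008 and 0.0008 for all genes. The members share libraries and moved as a block, so these counts are not of independent genes. In each of the 4 KO-labelled runs the members took a smaller share of counts with CompA than with XCT790. Those shares were 13.4 against 13.5%, 11.2 against 12.7%, 9.46 against 10.4% and 11.2 against 11.95%. In the WT runs they were 12.1 against 11.7%, 13.5 against 14.4%, 12.1 against 12.5% and 12.1 against 12.5%. With the run as a block 0 members were called in KO-labelled cells, and in WT cells Rps4l was, higher with CompA (log2 0.66, edgeR adjusted p = 0.033).

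Between KO-labelled and WT libraries no member passed with XCT790 or with CompA, where 9.51% and 7.7% of all genes did, with 0 and 1 at an unadjusted p under 0.05 and 0 by DESeq2 or limma-voom. Most lay slightly lower in KO-labelled libraries, 80 of 84 with XCT790 and 81 with CompA, with medians of −0.15 and −0.22 beside 0.03 and 0.02 for all genes.

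**Figure D4:**
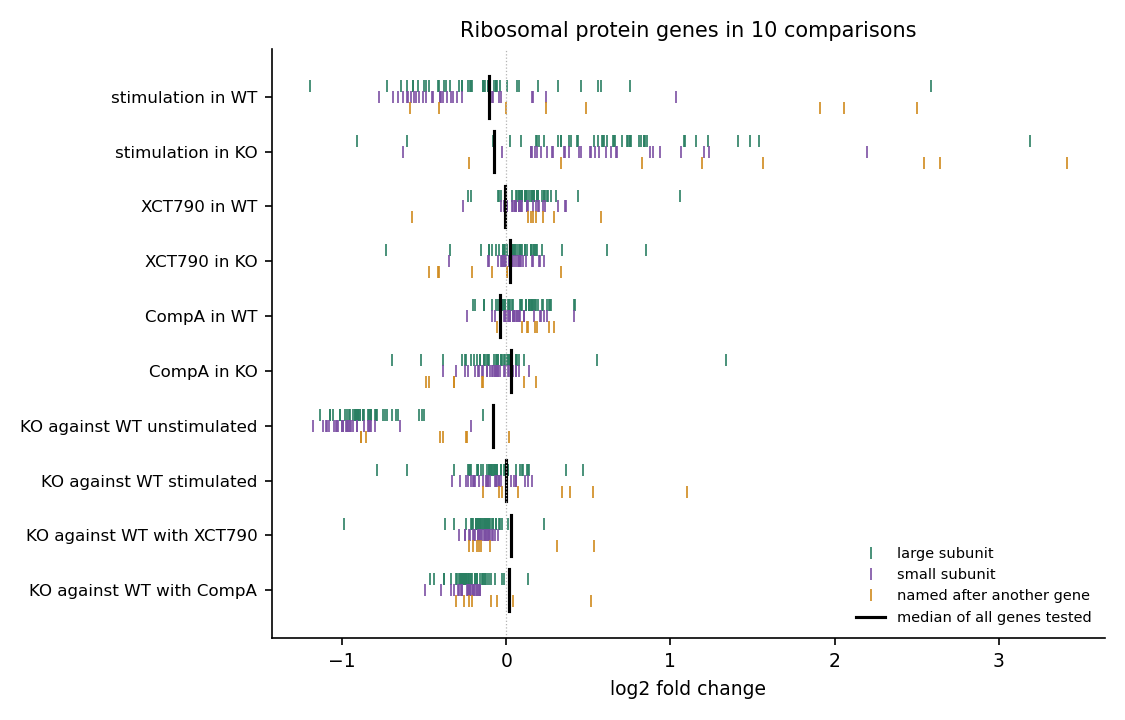
log2 fold change (horizontal axis) of the tested members in 10 comparisons (rows); each tick is a gene, coloured by large subunit, small subunit or a gene named after another, and the black line is the median of all 12332 genes tested. Ticks gather near 0 with either agent, and nearly all lie left of the line in the contrast of unstimulated groups, around a median of −0.90.

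Across all groups the leading genes had their main step between unstimulated and stimulated libraries. Rps27l went from 40.6 ± 15.3 CPM in WT unstimulated cells to 230 ± 39.8 with stimulation, 268 ± 7.89 with XCT790 and 281 ± 10.3 with CompA (SD, n = 4). In KO-labelled cells it went from 31.0 ± 3.35 to 331 ± 108, 239 ± 70.1 and 240 ± 47.5. With the low-count filter and no block, edgeR's test on all 8 groups called Rps27l in no comparison among the stimulated groups. The block called it with both agents in KO-labelled cells, as given above. Between KO-labelled and WT stimulated libraries it was called by DESeq2 and by edgeR with no low-count filter (log2 0.58 each, adjusted p = 0.030 and 0.042). For the interaction of genotype label with XCT790, DESeq2 called it (log2 −0.77, DESeq2 adjusted p = 0.042) and so did the blocked fit (−0.71, edgeR adjusted p = 0.012). For that with CompA the values were −0.83 (DESeq2 adjusted p = 0.031) and −0.75 (edgeR adjusted p = 0.0098).

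**Figure D5:**
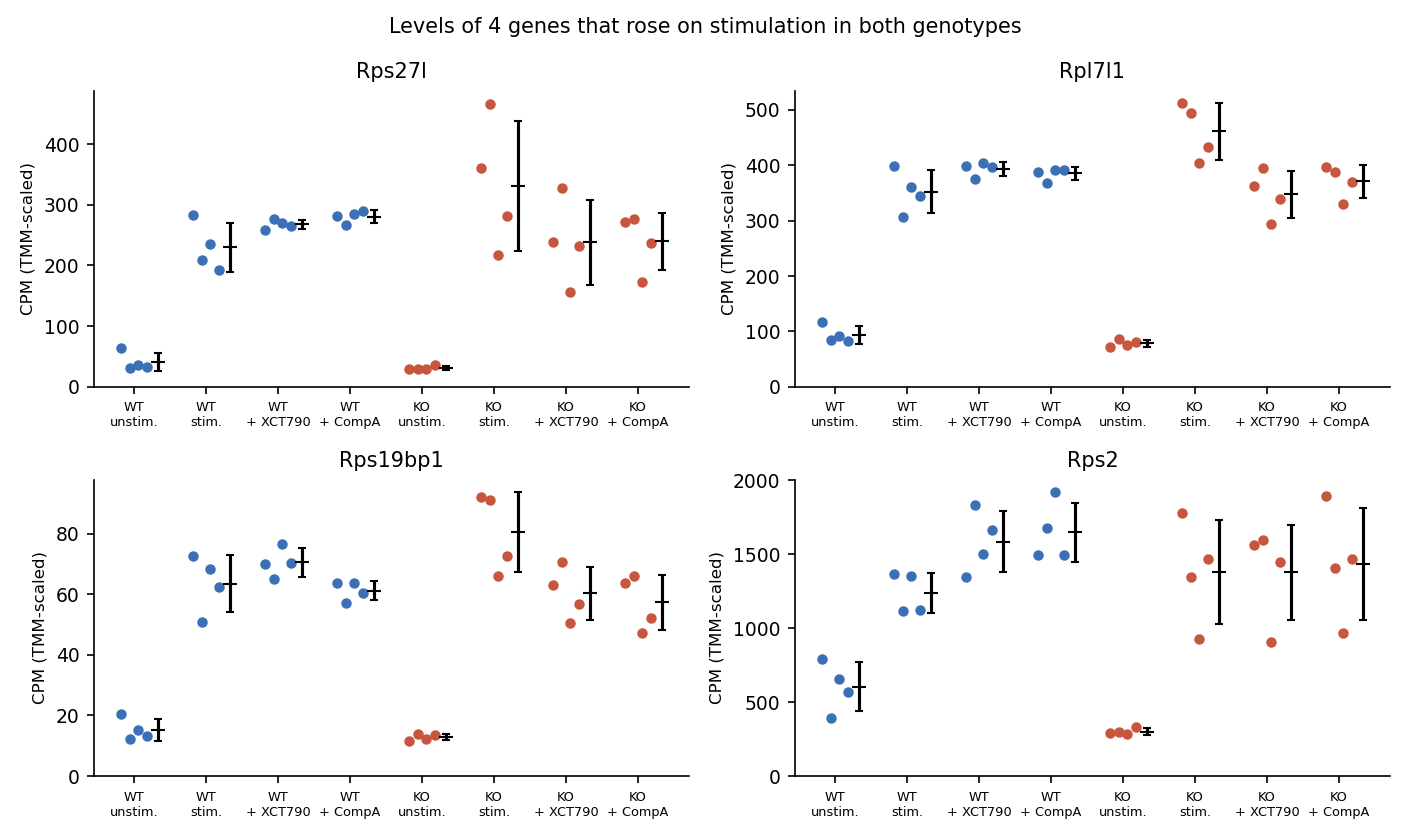
Level (vertical axis, TMM-scaled CPM from 0) of Rps27l, Rpl7l1, Rps19bp1 and Rps2 in the 8 groups (horizontal axis); points are libraries, with the mean ± SD of 4 libraries beside them. All 4 genes lie low in both unstimulated groups, and Rpl7l1 is higher in KO-labelled stimulated libraries (405 to 513 CPM) than in WT ones (306 to 398 CPM).

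Paralogue pairs shifted in count with stimulation. Rpl36al over Rpl36a, a pair whose proteins are nearly alike, gave a ratio of 0.150 to 0.169 in WT unstimulated and 0.211 to 0.237 in WT stimulated libraries, and of 0.153 to 0.165 and 0.239 to 0.262 in KO-labelled ones. Neither pair of ranges overlapped. Rpl36al rose in KO-labelled cells by 1.19 ± 0.17 (edgeR adjusted p = 3.5e-07) and Rpl36a by 0.53 ± 0.15 (edgeR adjusted p = 0.0021). In WT cells neither passed, with 0.24 and −0.27.

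Rpl22l1 over Rpl22, a pair known from T cell development, went the other way in WT cells, from 0.278 to 0.300 in unstimulated libraries to 0.207 to 0.254 in stimulated ones. The KO-labelled ranges, 0.243 to 0.317 and 0.173 to 0.245, met at one end. Rpl22 rose in KO-labelled cells by 0.76 ± 0.18 (edgeR adjusted p = 0.00047), and Rpl22l1, with 0.33 ± 0.19, did not pass (edgeR adjusted p = 0.11). Rps27l over Rps27 rose from a mean of 14.3 to 142 in WT and from 13.5 to 211 in KO-labelled cells, but with 98.7% of its stretches shared Rps27 may be undercounted, so that ratio may not be that of the mRNAs. Of the transcribed pseudogenes, Rpl37rt moved with Rpl37 (log2 0.83 and 0.81 in stimulated KO-labelled cells). Since 91.0% of its stretches are shared with other transcripts, Rpl37rt may be undercounted.

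Genes that make up or serve the ribosome outside the symbol rule were followed from fixed lists, chosen with earlier results of these data known. Fau, which encodes a small-subunit protein fused to a ubiquitin-like one, was lower in KO-labelled than in WT unstimulated libraries by a log2 difference of −0.93 ± 0.20 (edgeR adjusted p = 0.0012). Gnb2l1, which encodes the ribosomal scaffold Rack1, was lower there too, at −0.93 ± 0.19 (edgeR adjusted p = 0.00064). Of 15 other genes with TOP mRNAs, such as elongation and initiation factors, 12 were lower there (median −0.58), where 23.6% of all genes were, among them Tpt1 at −0.97 ± 0.20 and Eef1b2 at −0.91 ± 0.18 (edgeR adjusted p = 0.00092 and 0.00048). On stimulation 10 of the 15 rose and 2 fell in KO-labelled cells, where 39.3% and 42.4% of all genes did, and 7 rose and 5 fell in WT cells, where 34.5% and 38.8% did.

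Genes of ribosome assembly had larger changes on stimulation than the ribosomal protein genes. All 28 listed ribosome biogenesis genes rose on stimulation in WT cells (median 2.11) and 27 of 28 in KO-labelled cells (median 2.28). Of all genes, 34.5% and 39.3% rose. In the KO-labelled unstimulated libraries 11 of the 28 were lower and 1, the RNA polymerase I factor gene Ubtf, was higher (median −0.18). There 23.6% and 12.5% of all genes were lower and higher. In KO-labelled cells XCT790 lowered 8 of the 28 and CompA 19, with medians of −0.30 and −0.39, where 5.07% and 9.11% of all genes were lower. In WT cells XCT790 raised 4 (Polr1b, Fbl, Nop10 and Pes1) and lowered 0, with a median of 0.15. CompA raised Nop10 and Pes1 and lowered Ubtf there, with a median of −0.01. In these comparisons 28.6% and 32.8% of all genes were called in either direction. The WT stimulated libraries compared kept the unstimulated share of 0.195 to 0.349 given above. The part of that share in these values was not tested. Of 14 chaperones and export factors of ribosomal proteins, 13 rose in WT and 14 in KO-labelled cells, with medians of 1.44 and 2.12. Of all genes, 34.5% and 39.3% rose there.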

How the data were processed

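The authors deposited gene counts, 1 table per library, of unique reads per gene symbol; per the submitters' processing notes the tools were Trimmomatic 0.36, HISAT2 2.1.0, SAMtools and HTSeq 0.9.1 on mm10, with R 3.4.4 and DESeq2 1.18.1 listed too. Whether counting used strand is not known. The 5 summary lines of each table were left out of library sizes. The members, gene lists, tests and alternatives were chosen with earlier results of these data known.

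The deposited counts were fitted with edgeR 4.0.16 (R 4.3.3): filterByExpr kept 12332 genes, TMM factors scaled the libraries, and 1 quasi-likelihood fit of 8 groups gave 15 contrasts with Benjamini-Hochberg adjustment over all genes. CPM are TMM-scaled. Alternatives were DESeq2 1.42.0, limma 3.58.1 (voom), library totals, upper-quartile factors, TMM factors without the members, no filter, only the compared groups, a replicate block and leaving out each library. After seeing the data, subtraction of the unstimulated share and omission of KO replicate 2 were added. The fit was tested on simulated data drawn from the XCT790 comparison in WT over 12332 genes, where it recovered 47% of 1.5-fold and 74% of 2-fold changes with 5 false calls.

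Blocks were runs of 4 consecutive label numbers, each holding the 4 treatments of a genotype. Deviations of same-run KO-labelled libraries correlated by 0.186 to 0.686 in every pair, WT unstimulated and stimulated libraries by 0.368 to 0.559, and WT libraries with XCT790 and with CompA by 0.17 to 0.492; other WT pairs of groups were not all over 0.1. Whether same-run libraries share a mouse or date is not stated. Named genes were the stalk and surface members, Rps6, all paralogues and their namesakes, and the largest called changes of each comparison at 10 CPM or more. Rpl4, Rpl17, Rpl23a, Rpl15, Rpl41, Rpl7a and Rpl34 were named after their values were seen. Transcript lengths and shared 50-base stretches came from GENCODE M21, and promoters from RefSeq. Some values for ribosomal genes outside the symbol rule are not reported here.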

Additional observations from a re-analysis of the deposited data

Results flagged for a closer look

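Among 224 sets of 4 libraries examined for a library far from the other 3, 10 had one by Dixon's criterion, and chance alone gives about 1 in 20. In WT unstimulated cells Rps27l was at 63.3 CPM in replicate 1. In KO-labelled unstimulated cells it was at 36.0 CPM in replicate 4. The other 8 concern WT cells with CompA, where replicate 2 stood apart: the members' share of gene counts was 13.5%, the large to small subunit ratio was 1.18, and Rpl36a was at 889 CPM, Rplp0 at 6280, Rplp1 at 5010, Rplp2 at 2690, Rps14 at 3930 and Rps21 at 1710 CPM. These 8 share that library and are not independent.

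The response to stimulation differed by genotype label for 72 members, all with the higher value in KO-labelled cells. The response to XCT790 differed for 3 members (Rpl34, Rpl7l1 and Rps19bp1) and that to CompA for 2 (Rpl34 and Rpl7l1), all with the lower value in KO-labelled cells.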

How the results depend on the processing

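The 74 members lower in KO-labelled unstimulated libraries numbered 72 to 75 when each library was left out, with a median of −1.03 to −0.63, the latter without WT unstimulated replicate 1, and 74 or 75 under every other alternative. Leaving out 1 library gave 21 to 49 calls for stimulation in WT, 48 to 62 in KO-labelled cells, 1 to 3 for XCT790 and 0 to 5 for CompA in KO-labelled cells, 1 to 5 between stimulated groups, 35 to 77 for the interaction of stimulation, 1 to 4 for that of XCT790 and 0 to 4 for that of CompA. With only the compared groups fitted, calls were 16 for stimulation in WT, 1 for XCT790 and 4 for CompA in WT, 0 for either agent in KO-labelled cells, 1 for CompA against XCT790 in WT, 0 between stimulated groups and 34 for the interaction of stimulation. With the replicate block they were 3 for XCT790 (Rpl23a, Rpl34 and Rps4l) and 2 for CompA (Rpl34 and Rps2) in WT, 5 and 5 in KO-labelled cells, 1 for CompA against XCT790 in WT, 2 between stimulated groups and 4 for the CompA interaction; the block moved no other count by over 1.5 times. Upper-quartile factors gave 53 calls for stimulation in WT and a median of 0.33 in KO-labelled cells, and library totals a median of 0.25 there. Between stimulated groups library totals called 4, no filter 3 and DESeq2 3, and DESeq2 called 4 for the CompA interaction. Without KO replicate 2 calls were 1 for XCT790, 1 for CompA in KO-labelled cells and 0 for the CompA interaction. With the unstimulated share subtracted they were 2 for CompA in WT, 0 between stimulated groups, 0 for the XCT790 and 0 for the CompA interaction, and Rpl7l1 between stimulated groups turned to −0.0017. Fewer libraries were fitted where libraries or groups were left out; otherwise the cause was not tested. In all, 538 of 588 counts and medians moved by less than 1.5 times or 1 SD. Shares of all genes called under these alternatives are not given here. Depth limits Rpl30, Rpl34, Rps27, Rpl39l and Rps4l, all with low counts.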

Other observations

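A list of 18 genes that carry growth signals to ribosomal protein genes and their mRNAs (mTORC1, S6 kinase, the TOP mRNA-binding La-related proteins and the Myc network) had 17 members tested by edgeR's quasi-likelihood test with Benjamini-Hochberg adjustment. On stimulation 11 rose and 2 fell in WT cells, and 11 rose and 4 fell in KO-labelled cells, where 34.5% and 38.8% of all genes rose and fell in WT and 39.3% and 42.4% in KO-labelled cells, with medians of 0.56 and 0.78 on the log2 scale against −0.11 and −0.07 over all genes tested. Myc, the transcription factor that drives ribosome production genes, went from 71.3 ± 4.33 to 417 ± 82.4 CPM in WT cells (SD, 4 libraries each) and from 65.2 ± 10.1 to 484 ± 61.4 CPM in KO-labelled cells. Larp1, which binds TOP mRNAs, rose by 1.75 ± 0.24 (log2, SE) in WT cells and 1.43 ± 0.24 in KO-labelled cells. Eif4ebp1, the translation inhibitor that mTORC1 phosphorylates, rose by 1.08 ± 0.21 and 1.88 ± 0.21.

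Between the unstimulated groups 2 of the 17 were higher in KO-labelled cells and 3 lower, shares of the list no larger than the 12.5% and 23.6% of all genes. Larp1 was higher by 0.65 ± 0.23 and Tsc1, an inhibitor of mTORC1 signalling, by 0.60 ± 0.20, while Rheb, the mTORC1 activator, was at −0.53 ± 0.16 (log2, SE). Myc was at −0.13 ± 0.13, with an adjusted p of 0.447. In the stimulated groups 0 of the 17 were higher and 2 lower in KO-labelled cells, where 25.2% of all genes were called in either direction.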
